A study of Mus musculus with 42 samples.

Results

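Complex I of the respiratory chain was followed in mouse liver through the 44 genes whose names start with Nduf, out of 13031 genes listed for the lean WT and KO livers. The members were taken by name alone. They comprise 37 genes named as subunits (7 core subunits, 28 accessory subunits and the pair Ndufa4 and Ndufa4l2) and the 7 assembly factors Ndufaf1 to Ndufaf7. All 44 were found in the 6 deposited tables and all 44 passed the filter of a mean normalized count of at least 5. Ndufs5, an accessory subunit, was listed in the obese WT and KO table alone, at 0 to 1.26 normalized counts, and is not a member.

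Complex I, the NADH:ubiquinone oxidoreductase, takes electrons from NADH to ubiquinone and pumps protons across the inner mitochondrial membrane. Its nuclear core subunits carry the flavin and the iron-sulfur clusters of the peripheral arm, which holds the NADH-oxidising N module and the ubiquinone-binding Q module, while further core subunits are made from mitochondrial DNA and sit in the membrane arm. Accessory subunits surround this core and stabilise it. Assembly factors help to build the complex and leave before it is finished, and hepatocytes, which are rich in mitochondria, depend on it to oxidise fatty acids and amino acids.

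Liver RNA came from 42 mice, 7 in each of 6 groups, with 1 library per mouse. WT littermate and ChemR23 knockout (KO) males on the C57BL/6J background, the KO made with CRISPR/Cas9 and not restricted to a cell type, ate a lean diet with 10% of energy from fat or a high fat diet with 60% from the sixth week of age until after the fifteenth week of feeding. WT lean, KO lean, WT obese and KO obese mice received injections of vehicle (ethanol in PBS), and WT obese+RvE1 and KO obese+RvE1 mice received 300 ng of resolvin E1 (RvE1), a mediator derived from the omega-3 fatty acid EPA that binds ChemR23, on consecutive days before harvest. Whole liver was used.

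Between 15992525 and 43841120 reads per library fell on listed genes. Cmklr1, the gene of ChemR23, lay at 9.7 to 22.6 normalized counts in KO lean and 40.8 to 114 in WT lean livers, so its level followed the labels although reads remained. All 8 hepatocyte markers examined were listed, at a summed median of 1482860 normalized counts in KO lean and 1727930 in WT lean. The leading number of the mouse identifiers, whose meaning is not given in the labels, took 3 values among KO lean mice and 4 among WT lean mice, and no value was shared between any groups except KO obese and KO obese+RvE1, so in the other 5 comparisons the groups could not be compared within a number. Comparisons share groups: KO lean stands in 2 of them, as do WT lean mice, and WT obese and KO obese stand in 3 each.

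The members' levels per kilobase of annotated exon spanned a wide range in WT lean livers. Ndufc2, a small membrane-arm accessory subunit, was the most abundant member per length, at 1787, 2758 and 3893 normalized counts per kb (lowest, median and highest mouse). Ndufb9, another membrane-arm subunit, followed at 2095, 2676 and 3224, a range within that of Ndufc2, so these neighbours did not differ beyond their spread. At the low end stood Ndufa4l2, with a median of 18.9 per kb, below Ndufaf5 with 24.3. Of the assembly factors, Ndufaf1 had the highest median, 266 per kb, and ranked 22 of 44. The core subunit with the lowest median was Ndufs3, at 196 per kb, ranked 30. The fewest reads of any member in a mouse were 15, for Ndufa4l2.

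The start-site windows of the members with the smallest adjusted p in lean livers are shown because the binding sites long linked to respiratory genes, those of NRF1, GABP and YY1, were looked for in them. Each window runs from 250 bases before to 50 after the RefSeq start on GRCm38.p6. The capitals mark the letters AAGATGGCG, the YY1 motif.

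Ndufc2, plus strand, chr7:97399753-97400052: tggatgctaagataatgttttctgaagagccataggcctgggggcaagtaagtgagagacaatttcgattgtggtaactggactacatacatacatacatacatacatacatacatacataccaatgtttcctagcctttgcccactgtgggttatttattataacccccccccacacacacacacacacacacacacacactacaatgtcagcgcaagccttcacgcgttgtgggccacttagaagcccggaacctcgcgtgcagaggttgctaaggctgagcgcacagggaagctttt
Ndufs4, minus strand, chr13:114388045-114388344: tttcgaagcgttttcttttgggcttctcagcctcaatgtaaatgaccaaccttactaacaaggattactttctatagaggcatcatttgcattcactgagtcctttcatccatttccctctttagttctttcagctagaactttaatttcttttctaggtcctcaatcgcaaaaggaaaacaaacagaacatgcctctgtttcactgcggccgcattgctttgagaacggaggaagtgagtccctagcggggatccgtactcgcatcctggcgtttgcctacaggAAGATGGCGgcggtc

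Of the 44 members 38 had such a window. Motifs were searched on both strands: GCGCATGCG for NRF1, CCGGAAG for the ETS family to which GABP belongs and AAGATGGCG for YY1. The YY1 letters were present in 5 of 38 members (Ndufa9, Ndufc1, Ndufs4, Ndufs6 and Ndufs7) and in 3.43% of the windows of genes tested in lean livers. The NRF1 letters were in 4 members and 4.04% of windows, and the ETS letters in 5 members and 18.9% of windows. Among the 9 members with a window that were called higher in KO lean livers, 2 held the YY1 letters and 0 held either of the others. These matches describe letters and not bound sites.

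The question of what the loss of ChemR23 does without obesity was addressed by KO lean vs WT lean. Of 28 accessory subunits 8 were higher in KO lean livers, led by Ndufc2 at 2.17-fold, Ndufb2 at 2.09-fold and Ndufs4 at 1.83-fold. Of 7 core subunits 1 was higher, and of the 7 assembly factors named Ndufaf 0 were called. At an adjusted p under 0.1 (limma, Benjamini-Hochberg over all genes), 12 of 44 members were called, or 27.3%, beside 16.3% of the genes tested. Of these 11 were higher, beside 8.00% of genes, and Ndufs6 was lower, beside 8.30%. By class, 1 of 7 core subunits, 9 of 28 accessory subunits, both of Ndufa4 and Ndufa4l2 and 0 of 7 assembly factors were called. The count of these assembly factors called was also 0 with edgeR and DESeq2, and 1 of the 7, Ndufaf1, had an unadjusted p under 0.05 with limma. Ndufaf6 stood at a log2 fold change of 0.43 without being called. Of 10 tested assembly factors without the Ndufaf name 3 were called higher. The difference between the classes was not tested. The median log2 fold change was 0.13 over the 37 subunit names, 0.07 over core subunits, 0.05 over assembly factors and 0.00 over all genes tested. Without the mice of identifier number 20 or 8 the median over subunit names was 0.08.

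**Figure D1:**
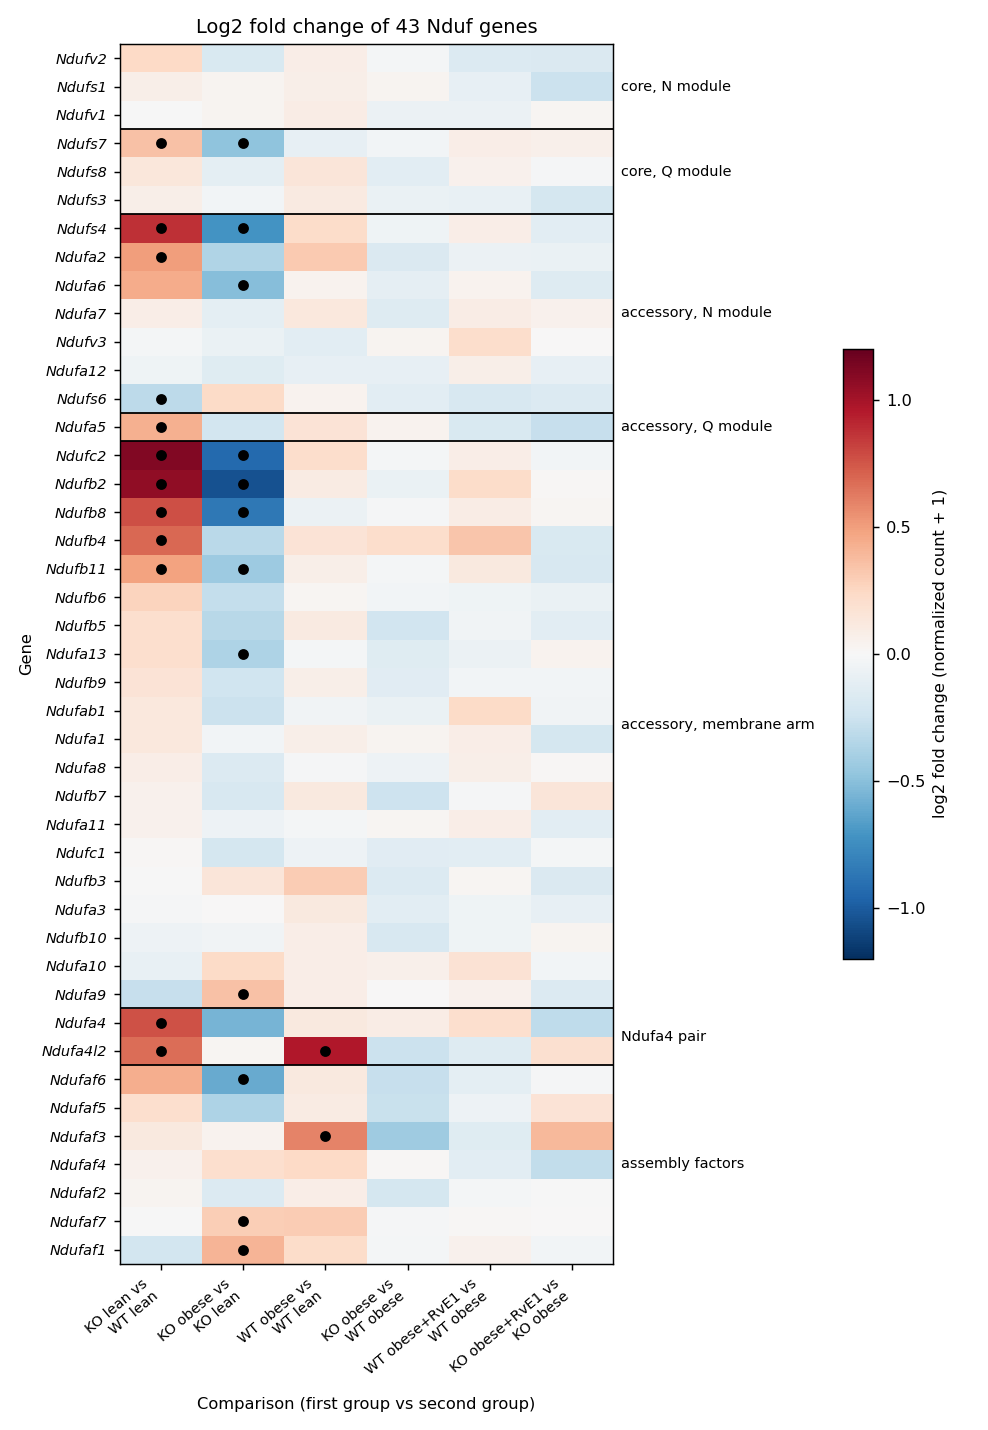
Log2 fold changes of 43 Nduf genes (rows, grouped by role) in the 6 comparisons (columns), with red for higher and blue for lower in the group named first and a black dot where the adjusted p was under 0.1. In the KO lean vs WT lean column 12 genes carry a dot, in KO obese vs KO lean 12 and in WT obese vs WT lean 2, and the other columns carry none.

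Ndufc2 had 1348, 2080 and 2935 normalized counts in WT lean mice (lowest, median and highest) and 2040, 5258 and 6148 in KO lean mice. The values of 6 of 7 KO lean mice exceeded all WT lean values, and the groups overlapped through 1 mouse. The difference was 1.12 ± 0.24 on the log2 scale (SE), 2.17-fold (limma adjusted p = 0.031). The gene lies at chr7:97400003-97407802 on the plus strand of GRCm38.

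Ndufs4, an accessory subunit that helps to hold the N module in place and whose loss in people and mice causes a Leigh-like disease, ranged over 790, 1295 and 1519 in WT lean and 1201, 2000 and 3451 in KO lean livers. Again 6 of 7 KO lean mice exceeded every WT lean mouse. Its log2 fold change was 0.87 ± 0.21 (adjusted p = 0.036). Ndufb2, a membrane-arm subunit, stood at 614, 961 and 1439 against 836, 2388 and 2760, with 5 of 7 KO lean mice above the WT lean range, a log2 fold change of 1.06 ± 0.26 and an adjusted p of 0.039. The annotated exons of Ndufb2 overlap those of Braf on the opposite strand, and the strand setting of the counting is not given in the sources used here.

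Ndufb4, also of the membrane arm, had 214, 248 and 379 normalized counts in WT lean and 292, 419 and 672 in KO lean mice. The groups overlapped, with 5 of 7 KO lean mice above all WT lean mice, and the log2 fold change was 0.69 ± 0.19 (adjusted p = 0.046). A processed copy, Ndufb4c, is annotated elsewhere in the genome, and its share of these reads was not tested. The other accessory subunits called higher were Ndufb8 (log2 fold change 0.77), Ndufa2 (0.50), Ndufb11 (0.49) and Ndufa5 (0.43). Ndufa6 narrowly missed the threshold at 0.45 (adjusted p = 0.10).

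Ndufs6, a zinc-binding accessory subunit of the N module, went the other way. It ranged over 322, 344 and 424 in WT lean and 247, 276 and 392 in KO lean mice. In 6 of 7 KO lean mice the value was below the lowest WT lean mouse, and the log2 fold change was -0.31 ± 0.11 (adjusted p = 0.086). Its exons overlap those of Mrpl36 on the opposite strand, as those of Ndufa2, Ndufb11, Ndufs1 and Ndufs3 overlap other listed genes.

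Among the nuclear core subunits Ndufs7, which carries the last iron-sulfur cluster before ubiquinone, was called. It had 528, 649 and 750 normalized counts in WT lean and 608, 793 and 1100 in KO lean livers (log2 fold change 0.35 ± 0.12, adjusted p = 0.084). The Ndufs7 call was lost with a correction for gene length and GC content (limma adjusted p = 0.20), with equal read totals (0.29) and with a random block for identifier number (0.21). No other core subunit was called, and those described next overlapped between the groups.

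Ndufv1, which binds NADH and the flavin, had 1980, 2339 and 2592 against 2078, 2235 and 2834, a log2 fold change of -0.01 ± 0.09. Ndufv2, its iron-sulfur partner, had 726, 996 and 1224 against 813, 1065 and 1507, with 0.24 ± 0.15. Ndufs1, the largest core subunit, had 1259, 1621 and 1716 against 1411, 1642 and 1711, with 0.07 ± 0.10. None of these passed the test. Over whole classes the median log2 fold change was 0.07 for the 7 core and 0.13 for the 28 accessory subunits, a difference that was not tested.

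Ndufs3, a subunit of the Q module, had 384, 427 and 578 in WT lean and 418, 457 and 585 in KO lean mice, a log2 fold change of 0.07 ± 0.11. Ndufs8, an iron-sulfur protein of the same module, had 427, 508 and 535 against 446, 529 and 768, with 0.13 ± 0.11. The sign of these small values depended on the scaling: with equal read totals Ndufs1 and Ndufs3 turned to -0.049 and -0.051, and after a correction for gene length and GC content Ndufs3 and Ndufs8 turned to -0.027 and -0.054.

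**Figure D2:**
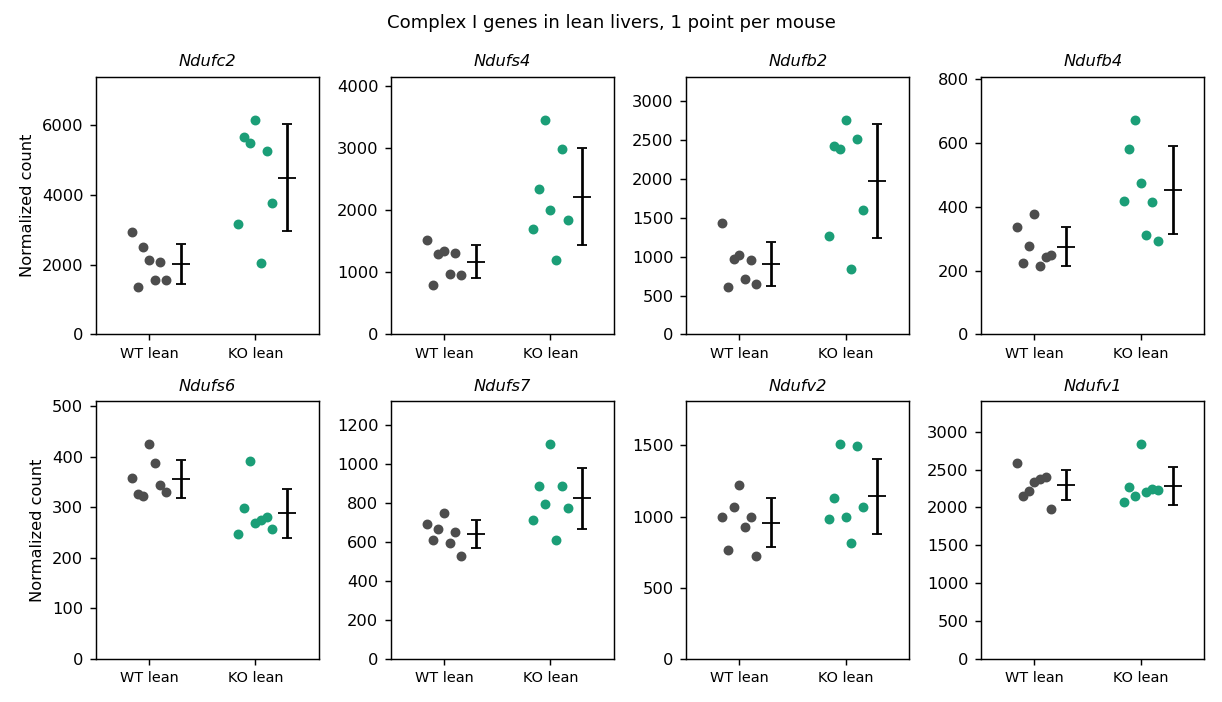
Normalized counts of 8 complex I genes in the 7 WT lean and 7 KO lean mice (1 point per mouse, each panel starting at 0, bars giving mean ± SD). For Ndufc2 and Ndufs4 6 of 7 KO lean points lie above all WT lean points, Ndufs6 is lower, and the values of the core subunits Ndufv2 and Ndufv1 overlap.

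The higher members varied widely between mice of a group. The median within-group SD was 0.38 on the log2 scale for the 11 called higher, against 0.20 for subunits not called and 0.31 for all genes tested. KO lean mouse 20R had the lowest KO lean value in 9 of the 11, and WT lean mouse 21L the lowest WT lean value in 7 of them. No member had groups that did not overlap, beside 0.744% of genes tested. Of the 11, the median exon length was 1381 bases, against 1801 for the subunits not called and 4378 for the genes tested that have an annotated length.

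The count of members called changed with the mice included and with the handling of the identifier number. Without 1 WT lean mouse (26R, 21L, 8RL or 8R) the members called numbered 3, 4, 7 and 7, and without 1 KO lean mouse (9L, 14RL or 20L) 4, 5 and 7. Over all 14 mice, left out 1 at a time, the count ran from 3 to 15. With a random block for identifier number 0 of 44 were called, beside 0.0230% of all genes, and 14 had an unadjusted p under 0.05, beside 20.4% of all genes. Ndufc2 stayed at a log2 fold change of 1.10 with an adjusted p of 0.14. The correlation within identifier number was estimated at 0.22 over all genes. Leaving out all mice of number 9, 21 or 26 also left 0 called, and without number 14 or 8 there were 5 and 6. Over all 7 numbers the count ran from 0 to 13. The shares of all genes called in the fits that leave out mice or numbers are not given here. The counts from those fits are therefore not read as a result about complex I. With equal read totals, which moved the median of all genes by -0.116 and left that of subunit names at 0.01, 6 subunit names were called higher and 2 lower and 1 assembly factor lower, and Ndufc2, Ndufb2, Ndufs4, Ndufb8, Ndufb4, Ndufa4 and Ndufs6 kept their calls. The split over all genes went from 1042 higher and 1081 lower to 392 and 1753 under that scaling. With the length and GC correction the calls of Ndufs7, Ndufa2, Ndufa5, Ndufb11 and Ndufa4l2 were lost.

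Other features moved with the genotype in lean livers. All 5 Kupffer cell markers that were tested were called higher in KO lean livers, and their summed level ran from 5624 to 12830 normalized counts there and from 2320 to 5490 in WT lean, with none at 0. No hepatocyte marker was called, while 1 of 3 lymphocyte and 1 of 5 sinusoidal endothelial markers were called higher. Median depth was 25483612 reads in KO lean and 19796716 in WT lean libraries. The part of these in the complex I result was not tested. In bulk liver, fewer cells of a type and less RNA per cell cannot be told apart.

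The effect of the high fat diet without ChemR23 was addressed by KO obese vs KO lean. Of 28 accessory subunits 7 were lower in KO obese livers, with Ndufb2, Ndufc2, Ndufb8 and Ndufs4 again at the front, whereas the assembly factors Ndufaf1 and Ndufaf7 and the accessory subunit Ndufa9 were higher. Here 12 of 44 members were called, or 27.3%, beside 24.1% of all genes tested, a share near the background. Of the subunit names 8 were lower and 1 higher, and of the assembly factors 2 were higher and 1 lower, beside 12.1% of genes lower and 12.0% higher. The median log2 fold change was -0.19 over subunit names, -0.11 over the 7 core subunits, 0.05 over assembly factors and 0.00 over all genes. That of subunit names was -0.12 without KO lean mouse 20L and -0.08 without the mice of identifier number 10. The KO lean mice are the same ones that stand in KO lean vs WT lean, so the opposite signs in these comparisons are not independent.

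Ndufb8, an accessory subunit whose protein is widely used as a marker of assembled complex I, had 1486, 3200 and 4376 normalized counts in KO lean and 1229, 1315 and 1993 in KO obese mice. Of the KO obese mice 4 of 7 lay below every KO lean mouse. The log2 fold change was -0.86 ± 0.21 (limma adjusted p = 0.017).

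Ndufb2 ranged over 918, 2630 and 3043 in KO lean and 586, 851 and 1464 in KO obese livers (-1.05 ± 0.27, adjusted p = 0.021). Ndufc2 ranged over 2240, 5794 and 6780 against 1646, 2033 and 3695 (-0.93 ± 0.25, adjusted p = 0.025). For both, 4 of 7 KO obese mice were below the KO lean range. The core subunit Ndufs7 had 667, 873 and 1214 against 519, 598 and 841, with 5 of 7 KO obese mice below all KO lean mice (-0.48 ± 0.14, adjusted p = 0.032). The remaining subunits called lower were Ndufs4 (-0.71), Ndufa6 (-0.51), Ndufb11 (-0.44) and Ndufa13 (-0.37).

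Ndufa9, an accessory subunit with a bound nucleotide, rose from 378, 479 and 604 in KO lean to 499, 610 and 662 in KO obese mice, with 4 of 7 KO obese mice above every KO lean mouse (0.35 ± 0.11, adjusted p = 0.044). Ndufaf1, which works in an early membrane-arm assembly complex, had 319, 377 and 443 against 442, 501 and 608 (0.41 ± 0.10, adjusted p = 0.018). Of the KO obese mice 6 of 7 exceeded the KO lean range.

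Ndufaf7, a methyltransferase that acts during assembly, had 116, 151 and 177 in KO lean and 166, 179 and 189 in KO obese livers (0.30 ± 0.11, adjusted p = 0.081). Ndufaf6, which acts early in assembly, fell from 200, 320 and 601 to 176, 201 and 279 (-0.60 ± 0.21, adjusted p = 0.064). Its groups overlapped, with 3 of 7 KO obese mice below all KO lean mice. No member had groups that did not overlap, beside 2.10% of genes tested. Assembly factors were thus called in both directions, and the difference between assembly factors and subunits was not tested.

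**Figure D3:**
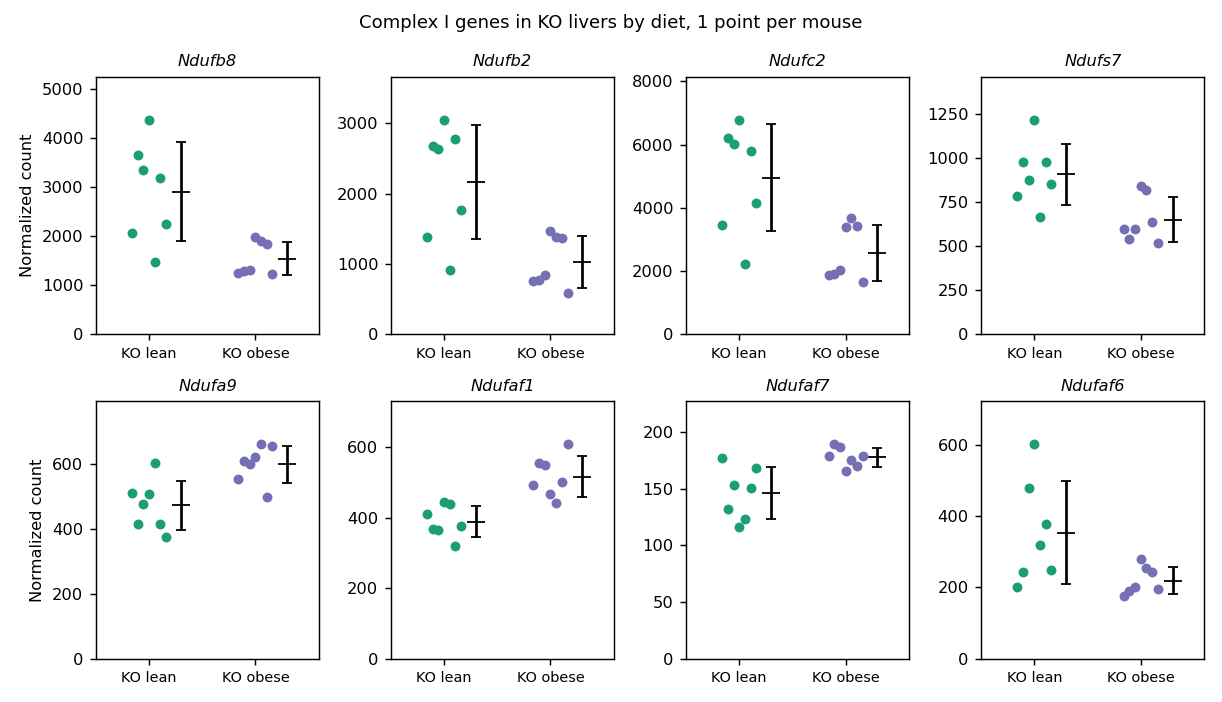
Normalized counts of 8 complex I genes in the 7 KO lean and 7 KO obese mice (1 point per mouse, each panel starting at 0, bars giving mean ± SD). Ndufb8, Ndufb2, Ndufc2, Ndufs7 and Ndufaf6 are lower and Ndufa9, Ndufaf1 and Ndufaf7 higher in KO obese livers, and the groups overlap in every panel.

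The count of members called changed with the mice included. Leaving out KO lean mouse 9L or any of KO obese mice 10-2L, 10RL, 10R and 31R left 7 members called, and over all 14 mice the count ran from 7 to 17. Without the mice of identifier number 10 a single member was called, and without number 31 or 9 there were 4 each. Over all 6 numbers the count ran from 1 to 17. The shares of all genes called in these fits are not given here, so the counts are not read as a result about complex I. With the length and GC correction the calls of Ndufs7, Ndufa6, Ndufa13, Ndufb11 and Ndufaf6 were lost. Those of Ndufs7, Ndufa6, Ndufa13 and Ndufb11 were also lost with equal read totals. With a random block for identifier number 2 were called, Ndufb8 lower and Ndufaf1 higher, beside 7.44% of all genes, and the adjusted p of Ndufb2 was 0.11. With equal read totals, which shifted the median of all genes by 0.143 and the split of all calls from 1704 higher and 1718 lower to 2559 and 628, the counts were 3 subunits higher and 4 lower and 3 assembly factors higher and 1 lower. Beside the complex I genes, 4 of 5 Kupffer cell markers, 4 of 5 lymphocyte markers, 3 of 5 sinusoidal endothelial markers and 27 of 76 cytosolic ribosomal protein genes were called lower in KO obese livers. The summed Kupffer cell markers ran from 3533 to 4660 normalized counts in KO obese and from 6173 to 14150 in KO lean, and their part in the result was not tested.

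The effect of the diet in WT mice was addressed by WT obese vs WT lean, where Ndufa4l2 and the assembly factor Ndufaf3 were higher in obese livers and no core or accessory subunit was called. These made 2 of 44 members, or 4.55%, beside 6.27% of all genes tested, and both were higher, beside 3.65% of genes higher and 2.61% lower. The median log2 fold change was 0.08 over subunit names and 0.22 over the 7 assembly factors, each of which had a positive value. Of all 14012 genes tested 7075 had a positive value. Relative to the WT lean mean, the assembly factor median per mouse ran from -0.05 (22L) to 0.52 (27RL) in WT obese mice. In WT lean mice it ran from -0.23 (21L) to 0.13 (26L). The subunit median changed sign to -0.04 without the mice of identifier number 27 and was 0.03, 0.13 and 0.17 without number 8, 26 or 6. Without mouse 21L, 8R, 27-2L or 27RL it was 0.04, 0.05, 0.03 and 0.03. Both edgeR and DESeq2 also called 2, beside 6.41% and 9.76% of genes.

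Ndufa4l2, a relative of Ndufa4 known to be induced by hypoxia, had 13.7, 19.9 and 25.5 normalized counts in WT lean and 29.6, 34.8 and 53.8 in WT obese livers. Its groups did not overlap, beside 1.36% of genes tested, and it was the 1 member of 44 for which this was so. The log2 fold change was 0.96 ± 0.19, 1.95-fold (adjusted p = 0.0096), and with a random block for identifier number the adjusted p was 0.043. Its exons overlap those of Shmt2 on the opposite strand, and its level is low.

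Ndufaf3, which with Ndufaf4 assembles the Q module, had 79.0, 115 and 148 in WT lean and 136, 169 and 217 in WT obese mice. Of the WT obese mice 6 of 7 lay above the WT lean range (0.59 ± 0.15, adjusted p = 0.039). With a random block for identifier number its adjusted p was 0.12, and the call was also lost without the mice of number 21, 27 or 6. Its exons overlap those of Impdh2 on the opposite strand.

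Within obese mice the genotype left no member past the threshold. KO obese vs WT obese called 0 of 44 with limma, edgeR and DESeq2, beside 0.0141% of genes tested (0.00706% higher and 0.00706% lower), and 1 member had an unadjusted p under 0.05 with each tool, beside 2.25% of genes in limma. That member was Ndufaf3, at 150, 186 and 240 normalized counts in WT obese and 115, 140 and 165 in KO obese livers. Its log2 fold change was -0.42 ± 0.11 with an unadjusted p of 0.0019 and an adjusted p of 1.00 in limma, and the groups overlapped. No member had groups that did not overlap, beside 0.0282% of genes tested. The subunits with the smallest p were Ndufb7 (-0.25 ± 0.12, 791, 868 and 1105 against 652, 694 and 997) and Ndufb5 (-0.23 ± 0.13, 601, 741 and 1023 against 551, 625 and 811). The 44 log2 fold changes lay between -0.42 and 0.21, with SEs of 0.08 to 0.26. The median over subunit names was -0.07 and ran from -0.14 to 0.05 when 1 identifier number was left out.

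RvE1 was tested in obese mice of each genotype, to ask which liver transcripts respond to the mediator and whether the receptor is needed. WT obese+RvE1 vs WT obese called 0 of 44 members with limma, edgeR and DESeq2, beside 0% of genes tested in limma, and no member had an unadjusted p under 0.05, beside 6.08% of genes. The smallest p values were those of Ndufv3, an accessory subunit of the N module (0.22 ± 0.11, 548, 690 and 809 in WT obese and 648, 730 and 996 in WT obese+RvE1), and Ndufab1, the mitochondrial acyl carrier protein (0.23 ± 0.12, 315, 401 and 509 against 401, 468 and 559). Among assembly factors Ndufaf3 came first, at 159.5, 198 and 255 against 153, 186 and 196 (-0.14 ± 0.11). All members lay between -0.19 and 0.33 on the log2 scale. The median over subunit names was 0.04. It was 0.24 without identifier number 7 and -0.10 without number 30, the 2 numbers of the treated WT mice.

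KO obese+RvE1 vs KO obese called 0 of 44 with these 3 tools, beside 0% of genes in limma, with 3 members at an unadjusted p under 0.05, Ndufaf3, Ndufs1 and Ndufaf4, beside 8.30% of genes. Ndufaf3 had 120, 147 and 173 normalized counts in KO obese and 147, 184 and 230 in KO obese+RvE1 livers, with 6 of 7 treated mice above the untreated range (0.39 ± 0.12, unadjusted p = 0.0061, adjusted p = 0.56 in limma). Ndufs1 had 1519, 1752 and 2205 against 1308, 1464 and 2028 (-0.26 ± 0.11), and Ndufa9 had 503, 617 and 665 against 491, 533 and 613 (-0.17 ± 0.09). Ndufaf4, the partner of Ndufaf3 in Q module assembly, was named after its values were seen and stood at -0.29 ± 0.10. The members' log2 fold changes ran from -0.31 to 0.39, with SEs of 0.08 to 0.38. The median over subunit names was -0.08 and ran from -0.18 to 0.01 when 1 identifier number was left out.

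**Figure D4:**
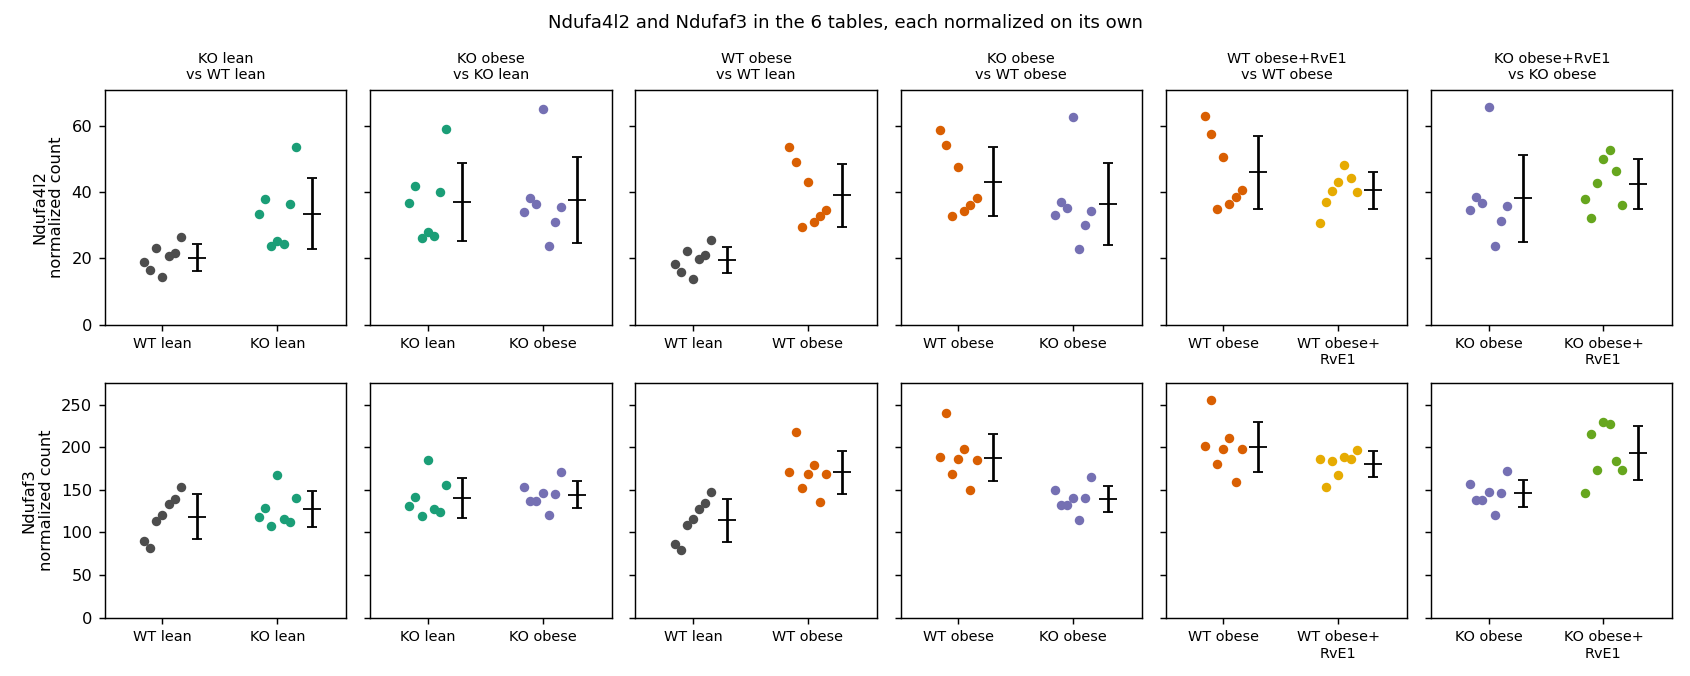
Normalized counts of Ndufa4l2 (top) and Ndufaf3 (bottom) in each of the 6 tables (1 point per mouse, bars giving mean ± SD). Each table was normalized on its own, so groups are compared within a panel. In the WT obese vs WT lean panel the 7 WT obese values of Ndufa4l2, 29.6 to 53.8, lie above the WT lean values of 13.7 to 25.5.

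Ndufa4 and Ndufa4l2, which share the name and sequence family but are placed with or near complex IV, are given together. Ndufa4 had 1218, 1530 and 2618 normalized counts in WT lean and 1750, 2814 and 5147 in KO lean mice (0.76 ± 0.22, adjusted p = 0.053), and Ndufa4l2 had 14.3, 20.7 and 26.4 against 23.8, 33.4 and 53.7 (0.67 ± 0.21, adjusted p = 0.060). Both were thus called higher in KO lean livers. Between KO obese and KO lean neither was called, at -0.55 for Ndufa4 and 0.03 for Ndufa4l2. In WT obese vs WT lean Ndufa4 was at 0.12 and did not pass, beside the 0.96 of Ndufa4l2. The difference between the genes was not tested.

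Side by side, the core subunits were called once outside lean livers. In KO obese vs KO lean they were -0.48 for Ndufs7, -0.19 for Ndufv2, -0.12 for Ndufs8, -0.04 for Ndufs3, 0.03 for Ndufs1 and 0.03 for Ndufv1. In WT obese vs WT lean they ran from -0.10 for Ndufs7 to 0.15 for Ndufs8, and in KO obese vs WT obese from -0.13 for Ndufs8 to 0.03 for Ndufs1. Under RvE1 they ran from -0.16 for Ndufv2 to 0.08 for Ndufs7 in WT obese mice and from -0.26 for Ndufs1 to 0.06 for Ndufs7 in KO obese mice. Apart from Ndufs7 in KO obese livers no core subunit was called in these 5 comparisons.

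Whether the effect of genotype differed by diet was tested as an interaction over 28 mice. With limma 0 of 44 members were called, beside 0.0539% of genes tested (0.0308% with a positive and 0.0231% with a negative difference), with 11 at an unadjusted p under 0.05, beside 18.4% of genes, and edgeR also called 0. DESeq2 called 6, beside 6.66% of genes, of which 5 were subunits and 1 an assembly factor, all with a KO effect that was more negative in obese than in lean livers. The smallest limma p values were those of Ndufa4l2, whose KO effect was -0.26 in obese and 0.67 in lean livers (difference -0.93 ± 0.29), and Ndufs4, at -0.05 and 0.87 (difference -0.93 ± 0.29), each with an adjusted p of 0.14. Without KO lean mouse 20R limma called 9 members, all lower, and without WT obese mouse 22L it called 5. The share of all genes called in these fits is not given here, so these counts are not read as a result about complex I. For the interaction of RvE1 with genotype all 3 tools called 0 of 44, beside 0% of genes in limma, with 1 at an unadjusted p under 0.05, beside 2.38% of genes. That gene was Ndufaf3, with an RvE1 effect of 0.39 in KO and -0.14 in WT mice (difference 0.54 ± 0.15, unadjusted p = 0.0017, adjusted p = 1.00), and Ndufa1 came next (-0.29 ± 0.18).

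**Figure D5:**
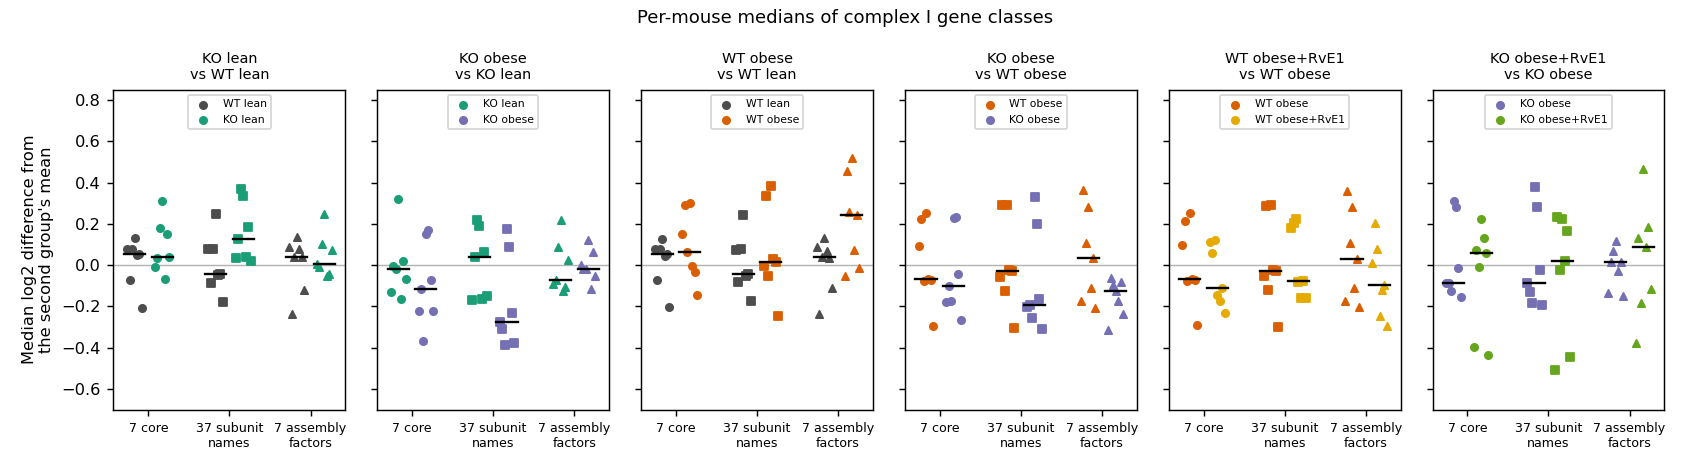
For each mouse, the median over 7 core subunits, 37 subunit names and 7 assembly factors of the log2 difference from the mean of the group named second (y axis), with short lines for the group medians. In KO lean vs WT lean the subunit medians run from 0.02 to 0.37 in KO lean and from -0.18 to 0.25 in WT lean mice, and the groups overlap in every panel.

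Per mouse, the median over 37 subunit names ran from 0.02 (9RL) to 0.37 (20-2L) in KO lean mice, against -0.18 (8R) to 0.25 (26L) in WT lean mice. For the 7 core subunits the ranges were -0.07 to 0.31 and -0.21 to 0.13, and for the 7 assembly factors -0.05 to 0.25 and -0.24 to 0.14. In KO obese mice the subunit median ran from -0.39 (10R) to 0.18 (23L) relative to the mean of KO lean mice, whose own medians ran from -0.17 to 0.22.

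The partner complexes were read from lists of named genes. In KO lean vs WT lean 5 of 9 complex III genes, 3 of 10 complex IV genes and 5 of 15 complex V genes were called higher and 1 complex V gene lower, with median log2 fold changes of 0.44, 0.30 and 0.16. Of all genes tested 8.00% were called higher and 8.30% lower. With a random block for identifier number 3 of all 13031 genes were called, so these calls too depend on that number. In complex II 1 of 4 was higher and 1 lower. For KO obese vs KO lean 5 of 9, 5 of 10 and 5 of 15 genes of complexes III, IV and V were called lower, beside 12.1% of all genes, with medians of -0.40, -0.34 and -0.21. In the other 4 comparisons no gene of complexes II to V was called, beside 6.27% of all genes in WT obese vs WT lean and at most 0.0141% in the others. Of 76 mitochondrial ribosomal protein genes 19 were higher and 3 lower in KO lean livers, beside 9 and 3 of 76 cytosolic ones.

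Assembly factors without the Ndufaf name were also measured. Of 10 tested, 3 were higher in KO lean livers, beside 8.00% of all genes: Tmem70 (0.67), Tmem126b (0.64) and Tmem126a (0.47), all of which act on the membrane arm. In KO obese vs KO lean Tmem70 was lower (-0.66) and Nubpl, which delivers iron-sulfur clusters, higher (0.53), and in WT obese vs WT lean Nubpl was higher (0.58).

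Among 12 regulators of mitochondrial biogenesis, Pprc1, a coactivator related to PGC-1, had the smallest p in lean livers, with 312, 412 and 599 normalized counts in WT lean and 146, 216 and 337 in KO lean mice (-0.88 ± 0.20, adjusted p = 0.035). Esrra, the nuclear receptor ERR alpha, had 1081, 1329 and 1749 against 1416, 2649 and 3888 (0.87 ± 0.20, adjusted p = 0.036). Pprc1 was thus lower and Esrra higher, as were Tfam (0.43), which packages and transcribes mitochondrial DNA, and Tfb1m (0.41). These made 4 of 12 called, or 33.3%, beside 16.3% of all genes tested. Of the 12 regulators only 3 had a positive log2 fold change, and the median over the 12 was -0.20. In KO obese vs KO lean Esrra (-0.97) and Tfam (-0.47) were lower and Pprc1 (0.83) and Gabpa (0.43) higher. These made 4 of 12, or 33.3%, beside 24.1% of all genes tested. Both comparisons hold the same KO lean mice, so the opposite signs are not independent. With a random block for identifier number 3 of all 13031 genes were called in KO lean vs WT lean. No core subunit made from mitochondrial DNA entered the tests.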

How the data were processed

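From whole liver the authors made TruSeq Stranded libraries, aligned paired reads to mm10 with Bowtie2, an aligner that does not split reads across introns, and used featureCounts per gene with the option that keeps pairs mapped at both ends. No source used here gives the versions, annotation or strand setting. The deposited signal values are normalized counts, reads per gene divided by DESeq2 size factors of the 14 libraries of a table, so groups are compared within a table. The deposited tables also hold the authors' fold changes and p-values, which were not used. No column of per-sample values was left unused.

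Whole reads were recovered from the deposited signal for 100% of values within 0.1 reads, and where several tables held the same library 0 values differed in reads, leaving out names turned into dates. No 2 libraries of a group looked like repeats (smallest chi-square per gene 22.6 over 126 pairs). Depth was 15992525 to 43841120 reads per library.

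Each comparison was tested with limma (3.58.1, R 4.3.3, lmFit and eBayes with trend) on log2(normalized count + 1), for genes with a mean of at least 5 over 14 libraries, two-sided, with Benjamini-Hochberg adjustment over all genes tested, and members were called below an adjusted p of 0.1, whatever the fold change. Fold changes are on this log2 scale. Interactions used 28 libraries and within-table differences. P-values of the main test set the group difference against the spread between mice of a group and treat the mice as independent. Tried in its place, 1 at a time, were pseudocounts of 0.5 and 4, all genes unfiltered, TMM, equal read totals, a loess correction for length and GC content (span 0.3), library weights, a random block for identifier number, a threshold of 0.05, a fold change above 1.5, edgeR (4.0.16) and DESeq2 (1.42.0) on recovered reads, and leaving out each mouse or identifier number. The procedure was tested on simulated data. Those counts were drawn independently for each mouse, so the simulation cannot speak to the dependence on identifier number. Coordinates and exon lengths came from GENCODE on GRCm38, the build of mm10, and 44 of 44 members matched by symbol. Promoters came from RefSeq on GRCm38.p6.

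The members and lists were chosen with earlier results of these data known. Members were described mouse by mouse by rule: per comparison the 4 subunits higher, 4 lower and 2 assembly factors each way with the smallest adjusted p among those called, otherwise the 2 subunits and 1 assembly factor with the smallest p, the core subunits in lean livers, Ndufa4 and Ndufa4l2, and the 2 smallest p of each interaction. The values of 1 member are not reported here, though it enters counts and medians. Lists of other complexes, assembly factors, regulators, ribosomal proteins and cell markers came from general knowledge. In KO lean vs WT lean 1 of 6 stellate cell markers was called (lower), 0 of 1 tested erythroid, adipocyte and acinar pancreas markers each, and no skeletal muscle or brown adipocyte marker passed the filter.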

Additional observations from a re-analysis of the deposited data

Results flagged for a closer look

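A mouse stood apart from its group, by a gap to its nearest neighbour that was large against the range of the group, in 4 of 64 sets of 7 values examined. Chance flags about 1 in 20 such groups. KO lean mouse 20L, the most deeply sequenced of its group, was the highest for the core subunits Ndufs8, at 768 normalized counts (the other KO lean mice 446 to 543), and Ndufv1, at 2834 (2078 to 2268). KO lean mouse 20-2L was the highest for Ndufs6 at 392 (247 to 298). KO obese+RvE1 mouse 23-2L was the highest for Ndufs1 at 2028 (1308 to 1544).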

How the results depend on the processing

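None of the 26 calls of members in the 6 comparisons changed direction in 794 alternative values, and 233 of these values were no longer past the threshold. The counts of members called in KO lean vs WT lean (12) were 0 with a random block for identifier number, 5 at an adjusted p under 0.05 and 7 with a fold change above 1.5 in addition. Of all 13031 genes tested these settings called 3, 718 and 866. In KO obese vs KO lean (12) they were 2, 7 and 5 under the same settings and 25 with library quality weights, which called 40.4% of all genes. Of all 14213 genes tested the settings other than the weights called 1057, 2064 and 1476. In WT obese vs WT lean (2) the random block gave 1, beside 1.99% of all genes. For the interaction of diet with genotype (0) DESeq2 gave 6 and library quality weights 11, beside 6.66% and 19.7% of all genes. Leaving out 1 mouse at a time gave 3 to 15, 7 to 17, 2 to 2 and 0 to 9 for these results. In KO lean vs WT lean leaving out identifier number 9, 21 or 26 gave 0, number 14 gave 5 and number 8 gave 6. In KO obese vs KO lean number 10 gave 1 and numbers 31 and 9 gave 4 each. In WT obese vs WT lean numbers 21, 27 and 6 gave 1 each. In the interaction of diet with genotype number 20 gave 4, number 22 gave 5 and number 8 gave 1. Both ways gave 0 in the other results. The shares of all genes called in the fits that leave out mice or numbers are not given here, so these counts are not read against a background. The cause was not tested. Small values of core subunits that were not called in KO lean vs WT lean changed sign. With equal read totals Ndufs1 was -0.049 and Ndufs3 -0.051, and with the length and GC correction Ndufs3 was -0.027 and Ndufs8 -0.054. Without 1 mouse Ndufv1 ran from -0.061 to 0.022. Without identifier number 20 Ndufs3 was -0.0065, and without number 14, 19, 26 or 9 Ndufv1 was 0.019, 0.022, 0.0089 and 0.0015. No paired analysis was possible because replicate numbers only follow the order of the samples. Depth limits Ndufa4l2, with 15 reads in 1 mouse.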
